A study of Mus musculus with 6 samples.

Results

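The comparison set mouse embryonic stem cells in which p/CIP was knocked down, by either of 2 siRNAs, against cells given a non-targeting control, and it is described here over all named genes. The knockdown side held 4 arrays, 2 from cells transfected with p/CIP siRNA 1 and 2 with p/CIP siRNA 2, and the control side held 2 arrays from cells that received pooled siRNAs without a specific target. Together these were all 6 arrays of the series, chosen by the siRNA in their titles. All groups were cells of E14, a single mouse embryonic stem cell line grown on adherent plates without a stated genetic change, so the groups differed by the siRNA alone as far as the labels say. The labels give no siRNA sequence, no dose and no time between transfection and RNA isolation. The labels do not state whether the 2 arrays of a group came from separate cultures, so the p-values measure the spread between these arrays, which may be technical. A gene was a symbol held alone by a probe set, the brightest probe set standing for it, which gave 19938 genes.

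p/CIP is the protein of Ncoa3 and one of the p160 coactivators, large nuclear proteins that dock on ligand-bound or constitutively active nuclear receptors through short leucine-rich motifs. They bring histone acetyltransferases such as p300 and CBP to promoters and enhancers, and also work with other transcription factors. In mouse embryonic stem cells Ncoa3 is known as a partner of Esrrb, an orphan nuclear receptor of the self-renewal network. Loss of a coactivator would be read on an array only through steady-state RNA, in which direct and later changes are mixed.

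Values were log2 signals, running from 2.69 to 14.59, and the median gene level over the 6 arrays was 7.81. Arrays of 1 group differed by a median SD of 0.1 on this scale. For 999 genes more than 1 probe set was available, and others are mentioned where they bear on a named gene. The array siRNA 1 replicate 2 had a narrower distribution than the rest, with an interquartile range of 3.13 against 3.33 to 3.45 on the other 5 arrays. All 10 embryonic stem cell markers checked, among them Pou5f1, Sox2, Nanog and Zfp42, were measured, and each lay at or above the level of 86.0% of genes. Markers of other cells were summed over fixed lists as the mean log2 level of each array. The 23 markers of extraembryonic endoderm averaged 8.35 to 8.78 on knockdown arrays and 8.25 to 8.55 on control arrays, and the 19 of trophoblast averaged 8.78 to 9.01 and 8.79 to 8.89. The mesoderm list (22 genes) averaged 7.61 to 7.77 with knockdown against 7.63 to 7.64 with control siRNA. For 24 neural ectoderm markers the ranges were 7.56 to 7.70 with knockdown and 7.65 with control siRNA on both arrays, and for 19 fibroblast markers 6.88 to 7.03 and 6.89 to 6.93. The ranges of knockdown and control arrays overlapped for each of these 5 lists. Within a replicate number, however, the extraembryonic endoderm list was higher with either siRNA, at 8.38 with siRNA 1 and 8.35 with siRNA 2 against 8.25 with control siRNA for number 1, and at 8.78 and 8.65 against 8.55 for number 2. Its median log2 change was 0.14, with 19 of 23 genes above control. That median was 0.011 without siRNA 1 replicate 2, 0.026 without control replicate 1 and 0.281 without control replicate 2. Of the 23 genes, 0 had all knockdown arrays above both controls, and 0 were higher at an unadjusted p under 0.05 by limma. None of the other 4 lists lay on one side in all comparisons within a replicate number. Whether such cells had a part in any result was not tested.

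Genes that passed the test after knockdown were all lower. Of 19938 genes, 14 fell (0.0702%) and 0 rose (0.0%) at a limma adjusted p under 0.05. At an unadjusted p under 0.05, 969 genes were lower (4.86%) and 770 higher (3.86%). With the replicate number as a block, 62 were lower (0.311%) and 6 higher (0.0301%). The 14 changes ran from -1.49 for Ncoa3 to -0.67 for the olfactory receptor gene Olfr153 on the log2 scale, folds of 2.81 to 1.59 with a median of 1.82. For every one of the 14, all 4 knockdown arrays lay below both control arrays, which held for 10.1% of all genes. The 14 were picked by small p on these same arrays, so this is no separate support. Their smallest gap between the nearest arrays of the sides was 0.60. The call depended on having every siRNA 2 and control array: without siRNA 2 replicate 1, siRNA 2 replicate 2, control replicate 1 or control replicate 2, 0 genes passed, whereas 34 fell and 3 rose without siRNA 1 replicate 1, and 19 fell and 4 rose without siRNA 1 replicate 2. The log2 changes of the 14 themselves ran from -1.54 to -0.65 over the fits that each omitted 1 array.

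Large changes were few on either side of 0. A log2 change of at least 0.5 was seen for 95 genes downward and 23 upward, and a change of at least 1.0 for 6 downward and 0 upward. Those 6 were Ncoa3, Inhbb, Necab1, H2-M5, Calcoco2 and the predicted gene Gm5662, of which the last was picked out after its values were seen. Gm5662 read 7.11 and 5.95 with siRNA 1 and 8.04 and 7.87 with siRNA 2, against 8.81 and 8.63 on control arrays. Its log2 change of -1.48 almost matched that of Ncoa3, yet the knockdown arrays differed so much among themselves that it did not pass (limma adjusted p = 0.197). The genes that fell spanned most of the signal range, with called genes from the second dimmest to the brightest of 10 equal groups of genes by level.

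The median change of a gene depended on how bright it was. Over all genes the median log2 change was 0.006, with 47.6% of genes below control. Among genes above the median level the median was -0.031, with 61.9% below control, and among the dimmer genes it was 0.045, with 33.4% below. With siRNA 1 the medians of the brighter and dimmer genes were -0.042 and 0.083, and with siRNA 2 they were -0.02 and 0.007. The pattern was nearly absent after quantile normalization (0.004 for brighter and 0.006 for dimmer genes) or cyclic loess (-0.001 and 0.003), and the dimmer median was 0.006 without siRNA 1 replicate 2, the array of narrow range. The 1015 olfactory receptor genes, which stem cells are not known to use and which read dim, had a median change of 0.048, with 29.2% below control. Medians of gene lists are therefore given below beside those of brighter or dimmer genes.

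**Figure D1:**
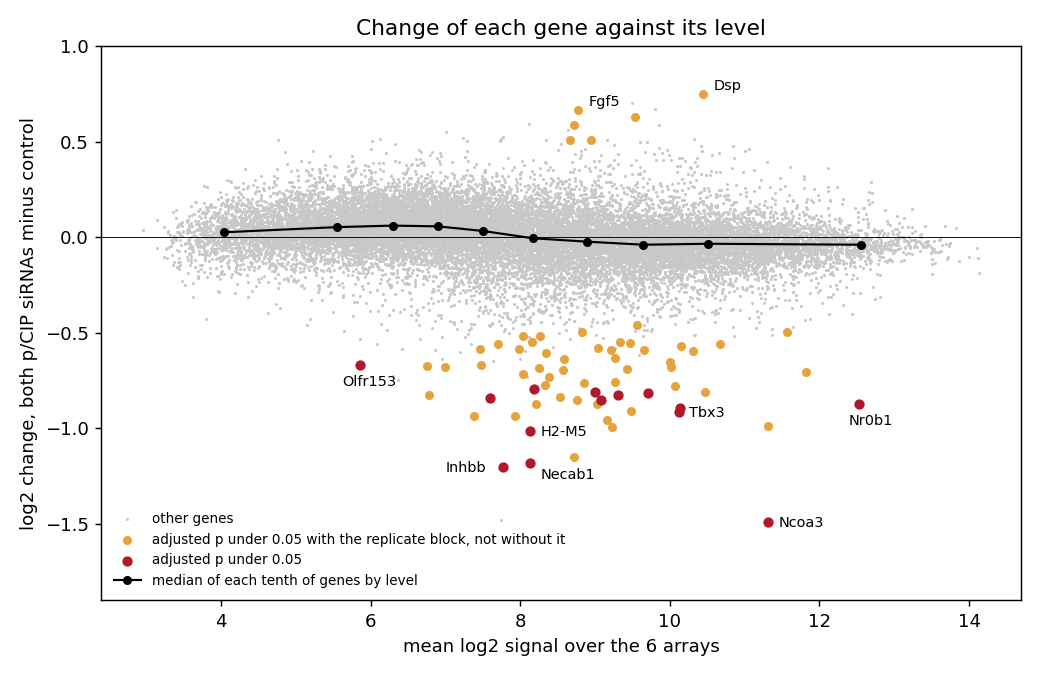
Log2 change of each of the 19938 genes (vertical axis, mean of both p/CIP siRNAs minus control) against its mean log2 signal over the 6 arrays (horizontal axis). Red points passed an adjusted p of 0.05, orange points passed it with the replicate block and not without it, and black points join the medians of 10 groups of genes of equal size, which lie above 0 among dim genes and below 0 among bright ones.

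The targeted gene came first by size. Ncoa3 read 10.71 and 10.93 with siRNA 1 and 10.71 and 10.92 with siRNA 2, against 12.33 and 12.28 on the control arrays. Both siRNAs thus left the same signal, 35.6% of control, and no knockdown array came near a control array. Its change of -1.49 had a standard error of 0.0964 (limma adjusted p = 0.0287). Signal in a lysate of many cells does not tell fewer transfected cells from less RNA in each, and this holds for every gene below.

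Nr0b1, known as Dax1, is an atypical orphan nuclear receptor without a classical DNA-binding domain that acts on other nuclear receptors. It read 12.23 and 12.18 with siRNA 1 and 12.30 and 12.26 with siRNA 2, against 13.18 and 13.05 with control siRNA. It was among the brightest genes of the arrays, and the 4 knockdown values lay within a narrow band below both controls. The change was -0.87 (standard error 0.0727, limma adjusted p = 0.0347). Tbx3, a T-box transcription factor of the naive state, read 9.78 and 9.94 with siRNA 1 and 9.75 and 9.78 with siRNA 2, against 10.84 and 10.61 on control arrays. Here 3 knockdown arrays nearly coincided, siRNA 1 replicate 2 read somewhat higher, and none reached a control. It fell by 0.91 on the log2 scale (standard error 0.0926, limma adjusted p = 0.0388). Gli2, the zinc finger factor that carries most of the activating output of hedgehog signalling, read 8.73 and 8.85 with siRNA 1 and 8.61 and 8.71 with siRNA 2, against 9.59 and 9.48 with control siRNA. It was lower on every knockdown array than on either control, and fell by 0.81 (limma adjusted p = 0.0347).

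A further group of the 14 encodes secreted signals, the machinery that makes them, and a receptor. Inhbb encodes the beta-B chain shared by activin B and inhibin B, ligands of the TGF-beta family. Its signal was 7.28 and 7.33 with siRNA 1 and 7.45 and 7.43 with siRNA 2, against 8.73 and 8.42 with control siRNA. The knockdown arrays of each siRNA agreed closely, while the 2 controls differed by 0.31, the widest control gap of the 14. The fold was 2.30, the largest of the 14 after Ncoa3 (log2 change -1.20, standard error 0.0973, limma adjusted p = 0.0347). Porcn encodes the enzyme of the endoplasmic reticulum that attaches a lipid to WNT proteins, without which they are not released. It read 9.32 and 9.44 with siRNA 1 and 9.54 and 9.47 with siRNA 2, against 10.31 and 10.20 on control arrays. All knockdown values sat together below the controls, and the change was -0.81 (limma adjusted p = 0.0347). Ntn1 encodes netrin-1, a laminin-related guidance cue that binds Dcc and Unc5 receptors. Its values were 9.04 and 8.91 with siRNA 1 and 9.13 and 9.03 with siRNA 2, against 9.85 and 9.86 with control siRNA, where the controls almost coincided. Ntn1 fell by 0.83 (limma adjusted p = 0.0347). Kit, the receptor tyrosine kinase for stem cell factor, read 8.79 and 8.84 with siRNA 1 and 8.83 and 8.73 with siRNA 2, against 9.73 and 9.57 with control siRNA. The 4 knockdown arrays spread by less than the controls did, and Kit fell by 0.85 (limma adjusted p = 0.0347).

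The remaining called genes encode cell-surface proteins, a calcium-binding protein, an enzyme and an odorant receptor. Necab1, a cytoplasmic EF-hand protein known from neurons, read 7.48 and 7.64 with siRNA 1 and 7.87 and 7.97 with siRNA 2, against 9.04 and 8.81 with control siRNA. Both siRNA 1 arrays lay below both siRNA 2 arrays, the groups of each siRNA did not touch the controls, and the pooled fold was 2.27 (log2 change -1.18, limma adjusted p = 0.0347). H2-M5, a non-classical class I histocompatibility gene, read 7.82 and 7.64 with siRNA 1 and 7.84 and 7.89 with siRNA 2, against 8.93 and 8.68 with control siRNA. It fell 2.02-fold (log2 change -1.01, limma adjusted p = 0.0347), with siRNA 1 replicate 2 lowest. Dpp4, the membrane peptidase CD26 that trims peptides after a proline or alanine, read 7.86 and 7.82 with siRNA 1 and 7.98 and 7.98 with siRNA 2, against 8.76 and 8.66 with control siRNA. The knockdown values formed a tight group well under the controls, at a change of -0.80 (limma adjusted p = 0.0347).

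Islr2, a leucine-rich repeat and immunoglobulin domain protein of growing axons, read 7.19 and 7.24 with siRNA 1 and 7.31 and 7.51 with siRNA 2, against 8.19 and 8.11 with control siRNA. It changed by -0.84 (limma adjusted p = 0.0372) and was nearest to control on siRNA 2 replicate 2. Cyp2b23, a cytochrome P450 of the family 2 enzymes, read 9.71 and 9.93 with siRNA 1 and 9.89 and 9.84 with siRNA 2, against 10.79 and 10.68 with control siRNA, a change of -0.89 (limma adjusted p = 0.0347). Olfr153 was the dimmest of the 14, at 5.64 and 5.60 with siRNA 1 and 5.70 and 5.62 with siRNA 2, against 6.30 and 6.32 with control siRNA. Its change of -0.67 passed on the deposited values (limma adjusted p = 0.0388), whereas quantile scaling gave an adjusted p of 0.0634 and cyclic loess one of 0.0519. Both scalings kept the other 13 of the 14. Inhbb, Islr2 and Olfr153 lay at or below the median gene level, where no detection call was used here to tell signal from background.

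**Figure D2:**
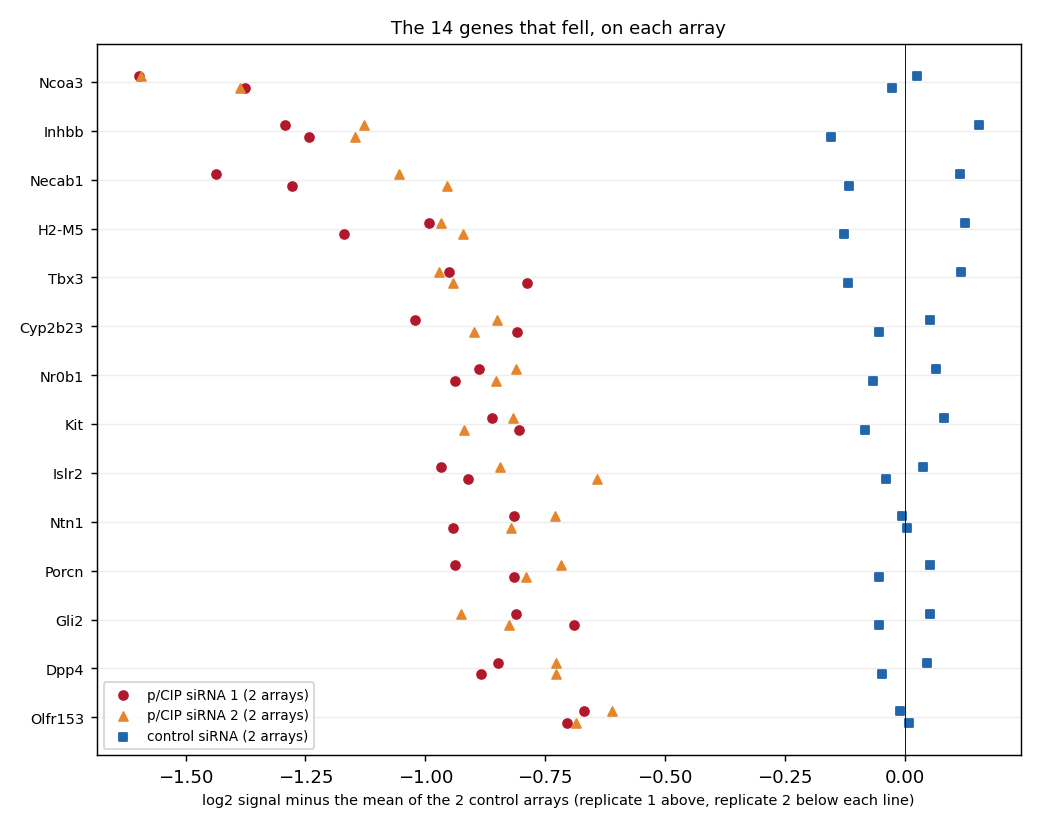
Log2 signal of the 14 genes that fell, as the difference from the mean of the 2 control arrays (horizontal axis), with 1 row per gene in order of change. Circles are p/CIP siRNA 1, triangles p/CIP siRNA 2 and squares control arrays, and in each row the knockdown arrays lie at least 0.60 to the left of the nearer control array.

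The siRNAs were alike in direction for all 14. These genes were called on the mean of both siRNAs, so the shared direction follows in large part from the selection. By size, the fall was smaller with siRNA 2 than with siRNA 1 in 10 of the 14 and larger in 4, and none of these differences passed, the lowest limma adjusted p between siRNA 2 and siRNA 1 being 0.649. For Necab1, the change was -1.0 with siRNA 2 and -1.36 with siRNA 1. Over all 19938 genes, 0 differed between the siRNAs at an adjusted p under 0.05 (0.0%), and 15 with the replicate block (0.0752%).

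Promoters are shown for the 3 called genes whose start region held the core motif of nuclear receptors, AGGTCA on either strand (TGACCT when read on the other), because p160 proteins bind such receptors. The sequences are RefSeq's for GRCm38.p6, from 250 bases before to 50 bases after the annotated start, 5′ to 3′ on the strand of the gene, with the motif in capitals. Of the 14 genes, 9 had an entry. Cyp2b23 is at chr7:26686381-26686680 on the minus strand, H2-M5 at chr17:36989484-36989783 on the minus strand, and Nr0b1 at chrX:86191525-86191824 on the plus strand.
Cyp2b23: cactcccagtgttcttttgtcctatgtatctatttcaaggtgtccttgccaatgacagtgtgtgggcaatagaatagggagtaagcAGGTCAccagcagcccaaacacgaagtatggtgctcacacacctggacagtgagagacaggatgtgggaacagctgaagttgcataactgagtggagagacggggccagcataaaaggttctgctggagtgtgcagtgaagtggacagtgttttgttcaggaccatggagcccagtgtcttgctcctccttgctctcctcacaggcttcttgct
H2-M5: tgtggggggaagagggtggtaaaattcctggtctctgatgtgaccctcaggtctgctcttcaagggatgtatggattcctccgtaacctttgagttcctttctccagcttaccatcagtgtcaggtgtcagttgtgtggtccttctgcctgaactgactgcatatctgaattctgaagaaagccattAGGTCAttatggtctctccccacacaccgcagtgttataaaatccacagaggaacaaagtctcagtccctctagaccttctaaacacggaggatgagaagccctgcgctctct
Nr0b1: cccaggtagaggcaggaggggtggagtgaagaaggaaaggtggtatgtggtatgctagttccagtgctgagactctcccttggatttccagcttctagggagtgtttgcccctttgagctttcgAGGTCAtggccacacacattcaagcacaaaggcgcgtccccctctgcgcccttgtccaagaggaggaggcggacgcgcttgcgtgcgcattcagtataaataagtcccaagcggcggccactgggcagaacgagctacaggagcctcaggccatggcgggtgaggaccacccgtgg

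The motif began 164 bases before the start in Cyp2b23, 63 bases before it in H2-M5 and 126 bases before it in Nr0b1. It was found in 3 of the 9 called genes with an entry and in 7 of 46 genes that were lower with the replicate block, against 16.3% of the 15614 measured genes with an entry. The longer form AAGGTCA, which contains the core and is the monomer motif of receptors such as Esrrb, was in 0 of 9 and 2 of 46, against 4.48%. TCAAGGTCA, which contains both shorter forms, was in 0 of 9 and 0 of 46, against 0.346%. A match says only that these letters stand in the window, and enhancers were not searched.

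Beyond the 14, the replicate block added 48 lower and 6 higher genes on the deposited values. Of the 68 that passed with the block, 67 had knockdown arrays that did not overlap the controls. Among all genes 10.1% had all 4 knockdown arrays below both controls and 8.83% had them above. The 68 were picked by small p on these same arrays, so this count is no separate support. Genes with a replicate shift shared by the groups gain most from the block, so the next counts follow in part from the selection. Replicate 1 read above replicate 2 in the control group for 50 of the 62 lower genes, against 52.6% of all genes. It did so in the siRNA 1 group for 46 and in the siRNA 2 group for 45, where no share over all genes was taken. Calcoco2, an autophagy receptor, shows this shape. It read 8.48 and 7.95 with siRNA 1 and 8.61 and 8.31 with siRNA 2, against 9.93 and 9.05 with control siRNA. Replicate 2 was lower in every group, and the change was -1.15 (limma adjusted p = 0.249, and 0.0311 with the replicate block). Left out one at a time, arrays moved that change between -1.59 and -0.71.

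Among these genes, several act at the cell surface or in adhesion. Jam2, a junctional adhesion molecule, was bright, at 11.02 and 10.87 with siRNA 1 and 11.11 and 10.95 with siRNA 2, against 12.13 and 11.82 with control siRNA. It lay just outside the threshold at a change of -0.99 (limma adjusted p = 0.0571, and 0.018 with the block), and it passed without the block under quantile scaling (0.0344) or cyclic loess (0.0278). Sfrp1, a secreted protein that binds WNT ligands, read 9.29 and 9.06 with siRNA 1 and 9.24 and 9.14 with siRNA 2, against 10.31 and 9.87 with control siRNA, a change of -0.91 (limma adjusted p = 0.134, and 0.0216 with the block). St8sia1, the sialyltransferase that makes ganglioside GD3, changed by -0.94, and Slc15a1, a proton-coupled peptide transporter, by -0.93. Cobl, a nucleator of actin filaments, changed by -1.0 and Stmn3, a regulator of microtubules, by -0.96. Without the block, Cobl and St8sia1 were each at a limma adjusted p of 0.0736 on the deposited values. Both passed under quantile scaling (Cobl 0.0418, St8sia1 0.0323) and cyclic loess (Cobl 0.0388, St8sia1 0.0372). A second, dim probe set of Stmn3 was at 0.07, so its probe sets disagreed. Lrrc34, a leucine-rich repeat protein, changed by -0.87.

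Higher genes were fewer and smaller in change, and none passed in the fit without the block. Fgf5, a fibroblast growth factor of the primed epiblast, read 8.78 and 8.66 with siRNA 1 and 9.24 and 9.28 with siRNA 2, against 8.30 and 8.35 with control siRNA. Every knockdown array lay above both controls, and those of siRNA 2 were highest. The change of 0.67 was at a limma adjusted p of 0.053, and it passed with the replicate block (0.0269) and with values scaled by quantiles (0.0323) or cyclic loess (0.0278). Its change was 0.93 with siRNA 2 and 0.40 with siRNA 1. Dsp, which encodes desmoplakin of desmosomes, read 10.68 and 10.89 with siRNA 1 and 10.48 and 10.72 with siRNA 2, against 9.79 and 10.09 with control siRNA. Replicate 2 was the higher of each pair, and the change of 0.75, the highest of any gene, was at a limma adjusted p of 0.146 and passed with the block (0.018).

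The other higher genes that passed with the block were Ahnak2 (0.63), a giant scaffold protein, Sh3rf2 (0.58), a ring finger protein with SH3 domains, Ap3b2 (0.51), a subunit of the AP-3 adaptor in neurons, and Cbr3 (0.51), a carbonyl reductase. A dimmer probe set of Ahnak2 was at 0.78, in the same direction. Related to it, the scaffold gene Ahnak was at 0.51 (limma adjusted p = 0.215). Nek7, a mitotic kinase that also takes part in the inflammasome, read 10.14 and 9.85 with siRNA 1 and 10.03 and 10.08 with siRNA 2, against 9.40 and 9.31 with control siRNA. No knockdown array of Nek7 came near a control, and its change of 0.67 was at a limma adjusted p of 0.134. It was at 0.0502 with the block, at 0.0503 under quantile scaling and passed under cyclic loess (0.0478). The next set leaves out predicted genes, clone names and olfactory or vomeronasal receptor genes. The remaining 10 of its 15 higher genes of smallest p were Sdc4, Lzic, Pnpla2, Gpx2, Pdzd2, Tspan5, Cdhr1, Irf1, Tmem154 and Lef1. Their changes ran from 0.38 for Cdhr1 to 0.59 for Gpx2, a glutathione peroxidase. Other probe sets were at 0.21 for Irf1, against 0.48, and at 0.05 for Tmem154, against 0.51, although the Tmem154 probe sets were close in level (5.79 and 6.02). Of the 10, Pnpla2 encodes the lipase that opens triglyceride breakdown, and Sdc4 a heparan sulfate proteoglycan of focal adhesions.

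**Figure D3:**
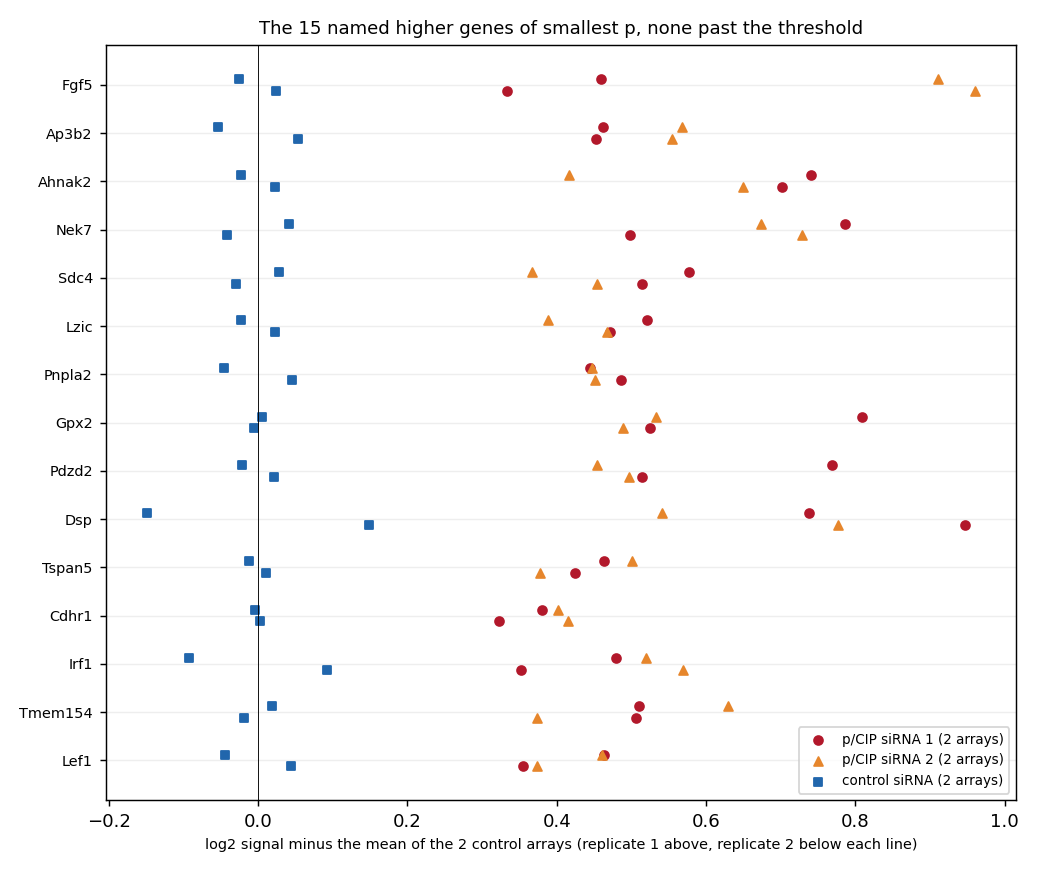
Log2 signal of the 15 higher genes of smallest p, as the difference from the mean of the 2 control arrays (horizontal axis), with 1 row per gene in order of p. Predicted genes, clone names and olfactory or vomeronasal receptor genes were left out. Circles are p/CIP siRNA 1, triangles p/CIP siRNA 2 and squares control arrays, and although the knockdown arrays lie to the right of both controls in every row, no gene passed an adjusted p of 0.05.

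Pathway lists were described by counts and medians, beside the medians of all genes (0.006) and of brighter and dimmer genes (-0.031 and 0.045). Among all genes 0.0702% fell, and 0.311% were lower with the block. The lists were chosen with earlier results of these data known, so a called gene may stand in a list because it was called. Of the p160 coactivators and their partners, 16 were measured, all above the median level, 1 fell (Ncoa3 itself), and 10 lay below control. The median was -0.017, between -0.036 and -0.011 over the fits that omitted 1 array, and it turned to 0.023 after quantile normalization and 0.024 after cyclic loess. Next to Ncoa3, the Mediator subunits came closest by p: Med12 was at 0.28 and Med1, the subunit that nuclear receptors contact, at -0.18, and neither passed. Among 33 nuclear receptor genes 1 fell, Nr0b1, and 14 lay below control. Esrrb read 11.48 and 11.35 with siRNA 1 and 11.48 and 11.31 with siRNA 2, against 11.99 and 11.82 with control siRNA. It was lower on each knockdown array, at a change of -0.50 (limma adjusted p = 0.186, and 0.0386 with the block). The retinoid partner Rxra was at -0.32 and the dim thyroid hormone receptor Thrb at 0.39, and neither passed.

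Growth factor pathways held single called members rather than many. In the activin, Nodal and TGF-beta list 1 of 30 fell, Inhbb. Lefty1, a secreted Nodal antagonist and Nodal target, read 10.31 and 10.07 with siRNA 1 and 10.90 and 10.68 with siRNA 2, against 9.99 and 9.96 with control siRNA. It was higher on all 4 knockdown arrays, most with siRNA 2, but its change of 0.51 did not pass (limma adjusted p = 0.199). Furin, the protease that cuts TGF-beta family precursors, was at 0.47 and did not pass. Of 24 BMP and Id genes 0 passed in the limma fit in either direction, 4 being lower and 4 higher at an unadjusted p under 0.05, with the ligand Bmp4 at -0.35, the inhibitor Smad6 at -0.37 and the target Id3 at -0.32, each below both controls on all knockdown arrays. Chrd was at 0.22, above both controls on all knockdown arrays. In the list 6 genes had every knockdown array above both controls and 4 had every one below, against 8.83% and 10.1% of all genes. The list's median was 0.081, with 8 of 24 genes below control. It was 0.135 without siRNA 1 replicate 1, 0.128 without siRNA 2 replicate 1 and 0.047 without control replicate 1.

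Among 43 WNT genes 1 fell, Porcn, and 1 more, Sfrp1, was lower with the block. Lef1, a DNA-binding partner of beta-catenin, was at 0.41 and the receptor Fzd5 at -0.45, and neither passed. The change of Fzd5 ran from -0.71 to -0.18 as arrays were left out, since its controls read 9.74 and 9.21. Of 16 hedgehog genes 1 fell, Gli2. The hedgehog-binding inhibitor Hhip was at -0.59 and dim, the target Gli1 at -0.21 and the transducer Smo at 0.22, none of them past the threshold. The median of the hedgehog list, -0.003, changed sign with scaling, to 0.016 after quantile normalization and 0.008 after cyclic loess, and it ran from -0.024 to 0.015 as single arrays were left out.

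In the FGF and ERK list of 31 genes, 0 passed without the block, and 1, Fgf5, was higher with it. At an unadjusted p under 0.05, 4 were lower and 4 higher by limma. Fgf17 was at -0.40 and the feedback inhibitor Spry4 at -0.28, while the phosphatase Dusp4, another feedback inhibitor, was at 0.33. Spry4 and Dusp4 thus pointed in opposite directions, and neither passed. The receptor tyrosine kinase list had 1 of 31 lower, Kit, 9 below control and 22 above, at a median of 0.076. Its median level was 7.71, with 15 of 31 members above the median gene level. Of all dimmer genes 33.4% lay below control, and of all brighter genes 61.9%. The median change of the list was 0.111 among its brighter members and 0.086 after quantile normalization. It was 0.023 without control replicate 1, 0.036 without siRNA 1 replicate 2, 0.048 without siRNA 2 replicate 2 and 0.137 without control replicate 2. Tek, an angiopoietin receptor, was at 0.49, the collagen receptor Ddr1 at 0.34 and Erbb3 at 0.24, without passing. Of 19 LIF and JAK-STAT genes 0 passed in limma, with 2 lower and 0 higher at an unadjusted p under 0.05. Lifr, the receptor chain for the cytokine that maintains these cells, read 9.62 and 9.44 with siRNA 1 and 9.48 and 9.44 with siRNA 2, against 9.96 and 9.95 with control siRNA. It lay below both controls throughout, and its change of -0.46 did not pass (limma adjusted p = 0.161). Stat3 was at 0.12, and the target Socs3 at -0.20. A dimmer probe set of Socs3 was at -0.038.

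Of 40 axon guidance ligands and receptors, 2 fell, Ntn1 and Islr2, against 0.0702% of all genes. The semaphorin co-receptor Nrp2 was at -0.30 and Plxnb2 at 0.20, neither passed, and 18 of the 40 lay below control. Among 31 Ras family genes 0 passed without the block and 2 were lower with it. Mras, a Ras relative, read 9.97 and 9.87 with siRNA 1 and 9.73 and 9.58 with siRNA 2, against 10.61 and 10.31 with control siRNA. Its change was -0.68 (limma adjusted p = 0.134, and 0.0269 with the block), and its second probe set was at -0.93. Eras, a constitutively active Ras of embryonic stem cells, read 8.02 and 7.51 with siRNA 1 and 8.41 and 8.17 with siRNA 2, against 8.82 and 8.61 with control siRNA. Here the siRNA 1 arrays were lower than the siRNA 2 arrays, and the change of -0.69 passed with the block (limma adjusted p = 0.257, and 0.0492 with the block). In the other direction, Rap2b was at 0.26 and Rit1 at 0.25, and neither passed.

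The adhesion and cytoskeleton lists held no gene that passed on the deposited values without the block. Of 35 genes of cell junctions and keratins, 10 had all knockdown arrays above both controls, which was true of 8.83% of all genes, and 2 had them all below. Cldn4, a tight junction claudin, was at 0.26 and Ocln, which encodes occludin, at 0.25, and neither passed. Of 45 integrin and matrix genes 0 passed, with 16 below control and a median of 0.058. The heparan sulfate proteoglycans Sdc4 (0.48) and Sdc1 (0.30) and the gelatinase Mmp2 (0.38) stood above both controls on every knockdown array, while the collagen-binding integrin Itga1 (-0.35) stood below both. The median of the list was -0.013 without control replicate 1, 0.003 without siRNA 2 replicate 2, 0.004 without siRNA 1 replicate 2, 0.093 without siRNA 2 replicate 1 and 0.109 without control replicate 2. Among 38 genes of actin and smooth muscle, 0 passed without the block, Ahnak2 was higher with it, and Actc1, cardiac alpha actin, was lower with it at -0.55. Actc1 read 8.64 and 8.96 with siRNA 1 and 9.36 and 9.65 with siRNA 2, against 9.48 and 9.93 with control siRNA, so the siRNA 2 arrays overlapped the controls.

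Of 25 genes of antigen presentation 1 fell, H2-M5, whereas 20 lay above control, with a median of 0.137. That median was 0.072 with siRNA 1 replicate 2 left out and 0.045 with control replicate 1 left out. The list was dim, with a median level of 6.70 and 8 of 25 members above the median gene level, and dimmer genes had a median of 0.045. Of the brighter members, Tapbp and Tap1, which load peptides onto class I molecules, were at 0.32 and 0.29 and did not pass. In the interferon and RNA sensing list 0 of 32 passed, with 5 lower and 4 higher at an unadjusted p under 0.05 in limma. Irf1, an interferon-regulated transcription factor, was at 0.48, Oasl2 at 0.40 and Oas1a at -0.51, so that both directions occurred within the OAS family.

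The siRNAs parted at Myd88, the adaptor of Toll-like receptors. It read 9.87 and 9.90 with siRNA 2 and 8.86 and 8.91 with siRNA 1, against 9.73 and 9.77 with control siRNA. Only the siRNA 1 arrays were low, so that the pooled change of -0.37 was the mean of 0.14 with siRNA 2 and -0.87 with siRNA 1. Between siRNA 2 and siRNA 1 it differed by 1.00 (limma adjusted p = 0.085, and 0.0395 with the replicate block). Pdk1, a kinase that inhibits pyruvate dehydrogenase, behaved alike, at 10.84 and 10.57 with siRNA 2 and 9.98 and 9.67 with siRNA 1, against 10.59 and 10.49 with control siRNA. Its difference between siRNA 2 and siRNA 1 was 0.88 (limma adjusted p = 0.31, and 0.0479 with the block). These were the 2 of the 117 named genes that differed between the siRNAs with the block, and 0 did without it.

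Cell cycle and repair genes lay mostly a little below control. Of 28 G1 cyclins, their kinases' inhibitors and E2F factors, 0 passed without the block, 20 lay below control, and 10 had every knockdown array below both controls. Of these 28 genes, 26 were above the median level, and among all such genes 61.9% lay below control and 15.4% had every knockdown array below both controls. The median of the list was -0.044, and it shrank to -0.007 after quantile normalization and -0.004 after cyclic loess. Ccnd2, which encodes cyclin D2, read 9.07 and 9.39 with siRNA 1 and 9.06 and 9.29 with siRNA 2, against 9.77 and 10.02 with control siRNA. Replicate 2 was the higher in each group, the groups did not overlap, and the change was -0.69 (limma adjusted p = 0.186, passing at 0.0197 in the blocked fit). E2f3 was at -0.41, Ccnd3 at -0.25 and E2f8 at -0.23, without passing. Of 35 DNA repair genes, all brighter than the median gene, 28 lay below control with a median of -0.095, and -0.056 after quantile normalization. It was -0.036 without siRNA 1 replicate 2, -0.041 without control replicate 1 and -0.057 without siRNA 2 replicate 2. None passed in limma, and 3 were lower and 0 higher at an unadjusted p under 0.05. These were Brca2 at -0.33, Nbn at -0.215 and Brca1 at -0.21. A dimmer probe set of Nbn was at 0.138, in the opposite direction.

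Of 31 translation factors, 30 lay below control, yet their median was only -0.079, and it shrank to -0.026 under quantile scaling and -0.038 under cyclic loess. It was -0.05 without siRNA 1 replicate 2 and -0.052 without control replicate 1. The list had a median level of 12.47, and the brightest of the 10 groups of genes had a median change of -0.04 with 70.3% of genes below control. None of the 31 passed in limma, and at an unadjusted p under 0.05 there was 1, Eif2s2, a subunit of the initiator tRNA carrier eIF2, at -0.34. Polycomb, Trithorax and histone methyltransferase genes, 36 in all, had 26 below control, 11 with every knockdown array below both controls and 0 with every one above. Of them, 34 were above the median level, where 61.9% of genes lay below control, 15.4% with every knockdown array below both controls and 8.2% with every one above. The median of the list was -0.07, against -0.026 under quantile scaling and -0.039 without siRNA 1 replicate 2 or without control replicate 1. Phf19, a reader of methylated histone H3 that joins Polycomb repressive complex PRC2, read 7.85 and 7.94 with siRNA 1 and 8.07 and 8.06 with siRNA 2, against 8.58 and 8.47 with control siRNA. It was the gene of this list that passed with the block (change -0.55, limma adjusted p = 0.115, and 0.0471 with the block), followed by Setdb1 at -0.31, Wdr5 at -0.27 and Mtf2, another PRC2 partner, at -0.26.

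Among 14 genes of DNA methylation, Tet2, a dioxygenase that oxidizes 5-methylcytosine, stood out. It read 10.28 and 9.82 with siRNA 1 and 10.45 and 10.23 with siRNA 2, against 11.18 and 10.83 with control siRNA. All knockdown arrays were below both controls, at a change of -0.81 that passed with the block (limma adjusted p = 0.199, and 0.0212 with the block). Its relative Tet3, on the other hand, was at 0.23 and the imprint-protecting factor Zfp57 at -0.26, and neither passed. Of 23 glycolysis genes 0 passed in limma, with 1 lower and 1 higher at an unadjusted p under 0.05. These were forms of the same enzyme, phosphofructokinase, with the muscle form Pfkm at 0.40 and the platelet form Pfkp at -0.27. The median of glycolysis genes, -0.039, was 0.004 after quantile normalization and 0.001 after cyclic loess, and ran from -0.071 without siRNA 2 replicate 1 to -0.015 without control replicate 1. Of 24 oxidative stress genes 0 passed, with 1 lower and 4 higher at an unadjusted p under 0.05. Metallothionein Mt1 (0.29) and heme oxygenase Hmox1 (0.26) lay above both controls on all knockdown arrays, and mitochondrial Sod2 (-0.29) below them.

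Of 35 core and naive pluripotency genes, 2 fell (Nr0b1 and Tbx3) and 6 were lower with the block, against 0.0702% and 0.311% of all genes. Jam2, 1 of these 6, also stands in the list of cell junctions. The list was chosen with earlier results of these data known, so its counts are no separate support. On every knockdown array 20 of the 35 lay below both controls, against 10.1% of all genes. Of the 35, 34 were above the median level, where 15.4% of genes did so and 61.9% lay below control. The median of the list was -0.145, and -0.117 after quantile normalization or -0.104 after cyclic loess. It ran from -0.225 without control replicate 2 to -0.145 without siRNA 1 replicate 2. Klf4, a zinc finger factor of the naive state, read 9.92 and 9.74 with siRNA 1 and 9.91 and 9.65 with siRNA 2, against 10.70 and 10.47 with control siRNA, a change of -0.78 (limma adjusted p = 0.134, and 0.018 with the block). The 21 primed epiblast genes had a median of 0.187 with 6 below control, and 0 passed without the block. That median was 0.060 without control replicate 1. Sall2, a zinc finger factor of the primed list, was at 0.51 and the ephrin receptor Epha4 of the same list at -0.38, so its members did not all point one way.

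The other 33 lists of the 58 had medians between -0.072 and 0.14, with 1 gene called, Necab1, and 2 lower with the block. For 19 families defined by gene symbol the medians ran from -0.072 to 0.06, and 2 members were called, Cyp2b23 and Olfr153. Across the 58 lists, the median change went with the median level, at a Pearson correlation of -0.587 and a Spearman correlation of -0.632. This is a description over lists that share arrays, and in part genes.

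**Figure D4:**
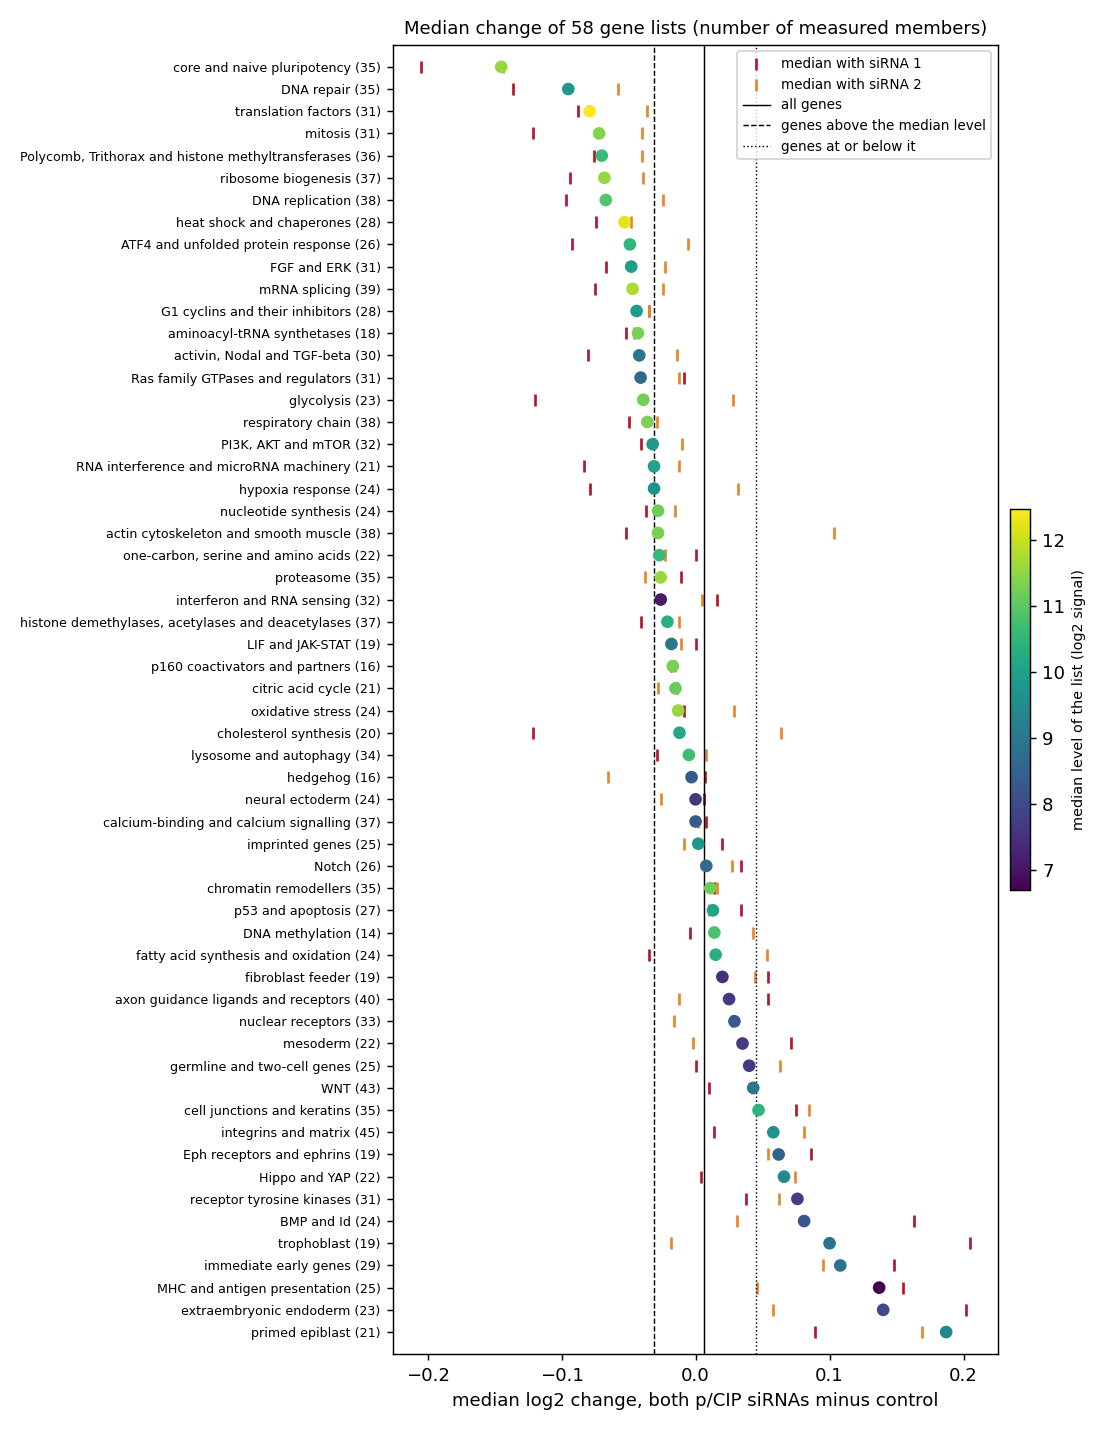
Median log2 change of each of the 58 gene lists (horizontal axis, both p/CIP siRNAs minus control), with the number of measured members in brackets and the colour giving the median level of the list. Ticks give the median with each siRNA, and vertical lines give the medians of all genes (0.006), of genes above the median level (-0.031) and of the rest (0.045), with brighter lists lying mostly to the left.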

How the data were processed

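Per the labels, total RNA was hybridized to expression arrays. The authors deposited 1 log2 value per probe set (35556) and array, the base being inferred here from the range. Per the submitters' processing notes, Partek was used, its version and normalization not given in the sources used here. GEO's platform annotation gave 1 symbol for 21789 probe sets, several for 1621 (left unnamed) and none for 12146. The number of arrays limits the precision.

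Arrays were fitted in limma 3.58.1 (R 4.3.3; lmFit, eBayes; 3 residual and 3.84 prior degrees of freedom) with 1 coefficient per group, unfiltered, both siRNAs weighted equally against control. Tests were two-sided, adjusted by Benjamini-Hochberg over 19938 genes, and tested on simulated data. Deviations of arrays with equal replicate numbers correlated at 0.464 (siRNA 1 and control), 0.407 (siRNA 2 and control) and 0.461 (siRNA 2 and siRNA 1). This check is weak with 2 arrays a group. The main fit left the arrays unpaired, and the replicate number served as a block only in an alternative fit. Blocked values are given where they change a call.

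Of 1755 entries in 58 lists, 1637 were measured. Named were Ncoa3, all called genes, the 15 higher genes of smallest p, up to 15 in each direction with the block, and the 4 members of smallest p of 25 lists. Those with the block were the largest changes whose arrays did not overlap the controls and whose brighter group mean was above the median level. Predicted genes, clone names and olfactory or vomeronasal receptor genes were left out, except among called genes. Members, lists and rule were chosen with earlier results of these data known. Alternatives covered the block, scalings, a level filter, probe set choice, variance models, pooled siRNAs and each array left out.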

Additional observations from a re-analysis of the deposited data

Results flagged for a closer look

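Among the 117 named genes, 5 had 1 knockdown array far from the other 3, judged by the gap to its neighbour over the range of the 4 arrays (above 0.829), a rule by which chance picks about 1 in 20 groups. Bmp4 was lowest with siRNA 2 replicate 1, at 12.11. Gpx2 was highest with siRNA 1 replicate 1, at 10.27, and Nrp2 was highest with siRNA 2 replicate 2, at 9.14. Pnpla2 and Tbx3 were highest with siRNA 1 replicate 2, at 10.14 and 9.94. For Nrp2, Pnpla2 and Tbx3 the 4 knockdown arrays spanned less than the 2 control arrays did.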

How the results depend on the processing

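The direction of change was kept for all 117 named genes under each alternative that could be run for them. The block, variance models, array weights and pooled siRNAs left each change as it was, so direction could not turn there. Many of these genes were also picked by small p in these data. The 14 lower and 0 higher genes became 62 and 6 with the replicate block, 60 and 14 with a variance trend, and 32 and 6 among genes above the median level, where 9969 were tested and 11 of the 14 shared. Over all probe sets, or with an unmoderated linear model, 0 genes passed. Higher genes numbered 1 after quantile normalization or with array weights, and 2 after cyclic loess or with the mean of a gene's probe sets. Leaving out 1 array gave 0 to 34 lower and 0 to 4 higher genes. Between siRNA 2 and siRNA 1, 2 named genes passed with the replicate block and 0 without it, also with any 1 array left out; those alternatives were chosen after seeing the data. The replicate block changed no call among the 117 beyond the 22 that then passed and these 2. Of the 25 lists described, 14 kept the sign of their median under all 17 alternatives and 11 did not. List medians could move only under the scalings, the level filter, the probe set choice and the omission of arrays. Causes were not tested. With 2 control arrays, dim genes and small changes were limited in precision.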
